A study of Mus musculus with 2 samples.

Results

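Trem1, Trem3, Treml2 and Treml4, which encode triggering receptors expressed on myeloid cells (TREM), and the signalling adaptors Tyrobp (DAP12) and Hcst (DAP10) were followed in blood neutrophils of the mouse. These 6 genes were taken by name, with no threshold on their values, out of 55536 genes measured. The data are 2 total RNA libraries of 1 group, from primary neutrophils of the peripheral blood of adult C57BL/6J mice aged 5 to 6 weeks, with no treatment or second condition named. The labels number the libraries as biological replicates 1 and 2, give both 1 donor identifier and record the sex as not collected, so the spread between them may be technical. Each library was made from 100 ng of RNA with the ScriptSeq v2 kit and a size range of 200 to 1000. With a single group, the questions are how strongly each gene was expressed, in which transcript forms, and how the 2 libraries compared. No test between conditions applies.

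TREM receptors are immunoglobulin-like proteins of the myeloid cell surface, most of them with short tails that carry no activating motif of their own. Most pair inside the membrane with DAP12, through a lysine of the receptor and an aspartate of the adaptor. The tail of DAP12 carries an immunoreceptor tyrosine-based activation motif (ITAM), whose tyrosines are phosphorylated by SRC-family kinases and then bind SYK. DAP10 carries a tyrosine motif that binds PI3-kinase and GRB2 instead, and is best known as the partner of the lymphocyte receptor NKG2D. TREM1 amplifies inflammatory responses of neutrophils and monocytes.

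The membrane segments are shown because this pairing rests on them. Each is the 21-codon stretch of the annotated reading frame with the highest hydrophobicity after the first 30 codons (GRCm38 sequence, GENCODE M21 transcripts), written 5′ to 3′ on the coding strand, with lysine or aspartate codons in capitals. The stretches are for Trem1 chr17:48244562-48244624, Trem3 chr17:48257884-48257946, Treml2 chr17:48309132-48309194, Treml4 chr17:48272741-48272803 and Tyrobp chr7:30414542-30414604, all on the plus strand, and for Hcst chr7:30418119-30418181 on the minus strand.
Trem1: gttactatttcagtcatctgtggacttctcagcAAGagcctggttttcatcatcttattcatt
Trem3: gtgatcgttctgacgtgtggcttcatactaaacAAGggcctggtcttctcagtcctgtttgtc
Treml4: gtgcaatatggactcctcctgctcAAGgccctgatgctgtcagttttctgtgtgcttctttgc
Treml2: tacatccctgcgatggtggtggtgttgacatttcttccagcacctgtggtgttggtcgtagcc
Tyrobp: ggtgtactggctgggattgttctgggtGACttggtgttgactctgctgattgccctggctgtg
Hcst: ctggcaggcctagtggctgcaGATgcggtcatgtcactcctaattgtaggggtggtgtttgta

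Trem1, Trem3 and Treml4 each had 1 lysine codon within the stretch, at codons 214, 149 and 209 of their reading frames. Treml2 had none. Both adaptors had 1 aspartate codon there, at codon 52 in Tyrobp and codon 43 in Hcst. After the stretch, the reading frames ran on for 7 codons in Trem1, 25 in Trem3 and 42 in both Treml2 and Treml4, and none of these 4 tails encoded an ITAM or a PI3-kinase motif by the patterns searched. The tails of the adaptors did. The ITAM of Tyrobp spans codons 92 to 106, with its tyrosine codons in capitals at 92 and 103, and is split by the last intron. The motif of Hcst spans codons 72 to 75, with its tyrosine codon in capitals.
Tyrobp ITAM: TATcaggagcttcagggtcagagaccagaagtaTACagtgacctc
Hcst motif: TACatcaacatg

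The 4 receptor genes lie side by side on the plus strand of chromosome 17, within 79766 bases (GRCm38). Trem1 (ENSMUSG00000042265.13) occupies chr17:48232768-48246924, Trem3 (ENSMUSG00000041754.5) chr17:48247777-48258841, Treml4 (ENSMUSG00000051682.15) chr17:48264295-48275360 and Treml2 (ENSMUSG00000071068.7) chr17:48299498-48312533. The adaptor genes are neighbours on chromosome 7 with their 3′ ends facing and 126 bases between them. Tyrobp (ENSMUSG00000030579.10) occupies chr7:30413760-30417585 on the plus strand and Hcst (ENSMUSG00000064109.8) chr7:30417712-30419854 on the minus strand. The only annotated gene overlapping a member was the processed pseudogene AC241601.2, on the minus strand within the second intron of Trem1, which had 79 expected counts in replicate 1 and 95 in replicate 2. The strand setting of the counting is not given in the sources used here, so reads of Trem1 and of this pseudogene may not be fully separated. No member had another gene matching at an identity of 95% or more over 100 nt.

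Expected counts on genes summed to 22646991 in replicate 1 and 21471673 in replicate 2. The neutrophil label was checked on 10 marker genes, all of which had a TPM (transcript abundance per length, scaled to a fixed library total) of 1 or more in each library, with a median of 70.8 ± 1.24. Ly6g was the lowest at 1.91 and 2.29 TPM. Markers of other blood cells were present, some at levels like or above these. The median was 259.8 ± 4.42 TPM for red cell markers, which are mostly globins, and 45.9 ± 4.75 for B cell markers, and lay below 5 for each of the other lists. All 10 B cell markers passed a TPM of 1, as did 8 of 10 for monocytes, 7 of 8 for T cells, 2 of 7 for natural killer cells, 5 of 6 for platelets, 5 of 6 for red cells, 1 of 6 for dendritic cells, 1 of 4 for eosinophils and 0 of 4 for basophils. The eosinophil gene Epx was listed at 0 TPM in both libraries. The part that such cells have in any level below was not tested. In bulk RNA, fewer cells of a type and less RNA per cell cannot be told apart.

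All 6 genes reached a TPM of 1 in each library, where 34.9% of 22028 protein-coding genes did. Tyrobp stood far above the rest. Trem1, Treml2 and Trem3 lay close together well below it, and Treml4 and Hcst were lowest. Levels are TPM with mean ± SD over both libraries (n = 2).

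**Figure D1:**
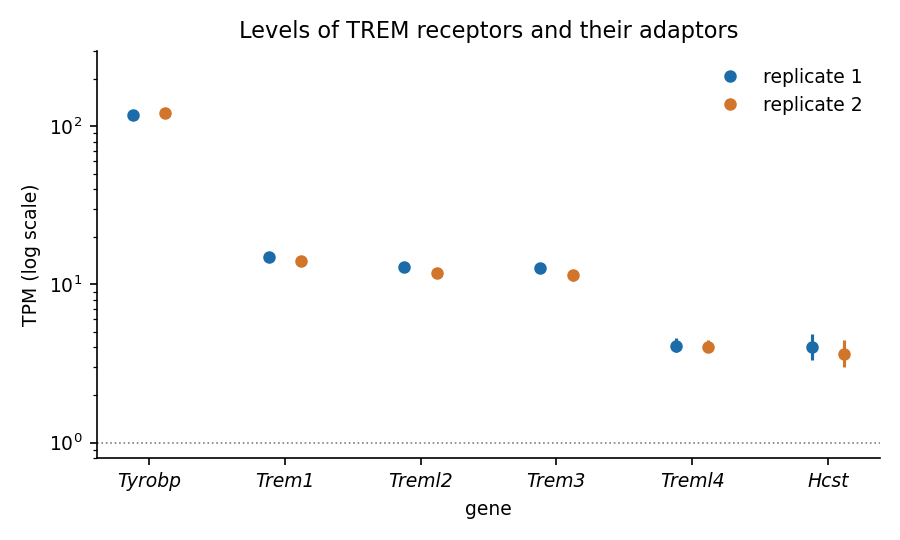
TPM of the 6 genes (vertical log axis) in replicate 1 (blue) and replicate 2 (orange), with the deposited interval of each estimate as a line and a TPM of 1 dotted. Tyrobp lies at 118 and 122, the receptors Trem1, Treml2 and Trem3 between 11.4 and 14.9, and Treml4 and Hcst between 3.62 and 4.05.

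Tyrobp, the ITAM adaptor, had 118 TPM in replicate 1 and 122 in replicate 2 (120 ± 2.5), from 4638 and 4949 expected counts. It ranked 75th and 65th among protein-coding genes. The deposited intervals, 113 to 120 in replicate 1 and 117 to 123 in replicate 2, overlapped. The value of replicate 2 lay above the interval of replicate 1.

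Hcst, the PI3-kinase adaptor, had 4.0 and 3.62 TPM (3.81 ± 0.269), from 107 and 99 expected counts. Its deposited intervals, 3.33 to 4.86 and 3.01 to 4.44, overlapped widely. Tyrobp therefore exceeded Hcst 29.5-fold in replicate 1 and 33.6-fold in replicate 2, a log2 ratio of 4.98 ± 0.13. The ratio was 5.42 on the older M4 gene models, where Hcst has 1 transcript and 83 and 67 counts, and 4.54 in the alignment-free table. Klrk1, which encodes NKG2D, the receptor paired with DAP10, had 0.80 and 0.57 TPM. The summed level of the natural killer markers was 7.43 and 7.18 TPM and that of the T cell markers 29.96 and 30.05, and their part in the level of Hcst was not tested.

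Trem1 was the highest of the 4 receptors, with 14.87 and 14.03 TPM (14.4 ± 0.594) from 3895 and 3706 counts. It ranked 1106th and 1096th among protein-coding genes. Both of its values lay above both values of each of the other 3 receptors.

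Treml2, which lacks the membrane lysine codon, had 12.95 and 11.80 TPM (12.4 ± 0.813) from 4067 and 3672 counts. The protein is known in mice from B cells as well as myeloid cells. The summed B cell markers were 719 TPM in replicate 1 and 645 in replicate 2. Both they and Treml2 were lower in replicate 2, as was the median protein-coding gene on the TPM scale (log2 ratio -0.10, against -0.13 for Treml2). The part of B cells in the level of Treml2 was not tested.

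Trem3, an activating DAP12 partner in mice whose human counterpart is a pseudogene, had 12.78 and 11.41 TPM (12.1 ± 0.969) from 1035 and 937 counts. Its count was far below that of Treml2 at a like TPM, as its effective length was 829 and 835 bases, against 3213 and 3165 for Treml2. The 2 libraries of Trem3 and Treml2 overlapped, with a log2 difference of 0.03 ± 0.02, so these genes could not be ranked against each other.

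Treml4, known in mice from monocytes, macrophages and dendritic cells and from responses to dying cells, was the lowest receptor at 4.05 and 3.99 TPM (4.02 ± 0.0424) from 539 and 575 counts. The summed monocyte markers were 42.4 and 37.9 TPM. Among markers of the Ly6C-low monocytes, Spn had 6.16 and 5.38 TPM, Cx3cr1 1.11 and 1.26 TPM, Adgre4 0.81 and 0.98, and Ace 0.64 and 0.42. These genes were picked from the monocyte list. The mean TPM of its other genes was 7.2 for Csf1r, 7.02 for Ly6c2 and 5.57 for Ccr2. It was 5.2 for Adgre1, 3.74 for F13a1 and 2.95 for Fn1. The part of monocytes in the level of Treml4 was not tested.

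In order, Tyrobp lay 8.30-fold above Trem1, a log2 difference of 3.05 ± 0.09. Trem1 lay above Treml2 by 0.22 ± 0.04 and Trem3 above Treml4 by 1.59 ± 0.10 on the log2 scale, and in these 3 steps the libraries did not overlap. Treml4 and Hcst differed by 0.08 ± 0.09, within their spread. Summed over the 4 receptors, the level was 44.65 and 41.23 TPM (42.9 ± 2.42). Trem1 made up 33.3% and 34.0% of it, Treml2 29.0% and 28.6%, Trem3 28.6% and 27.7% and Treml4 9.07% and 9.68%. Tyrobp exceeded this sum 2.65-fold and 2.95-fold, a log2 ratio of 1.48 ± 0.11. Set against Fcer1g, the ITAM chain of the Fc receptors and a comparison chosen after its values were seen, Tyrobp was higher by a log2 of 1.74 and 1.81.

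The level depends on what shares the TPM scale. Protein-coding genes of the nucleus held 8.81% and 8.35% of the TPM in the M21 gene table and 16.6% and 14.95% in the alignment-free table. With TPM rescaled to those genes alone, the means were 1399 for Tyrobp, 168 for Trem1, 144 for Treml2, 141 for Trem3, 46.9 for Treml4 and 44.4 for Hcst. On that scale the alignment-free table gave 0.841 times the main value for Tyrobp, 0.993 for Trem1, 0.933 for Treml2, 0.882 for Trem3, 0.962 for Treml4 and 1.14 for Hcst. On the M4 models Treml2, there a single long transcript, ranked below Trem3, at 9.01 TPM against 12.2. In the alignment-free table Hcst ranked above Treml4, at 7.96 against 7.10 TPM. Tyrobp and Trem1 held the first and second place in all 3 tables.

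**Figure D2:**
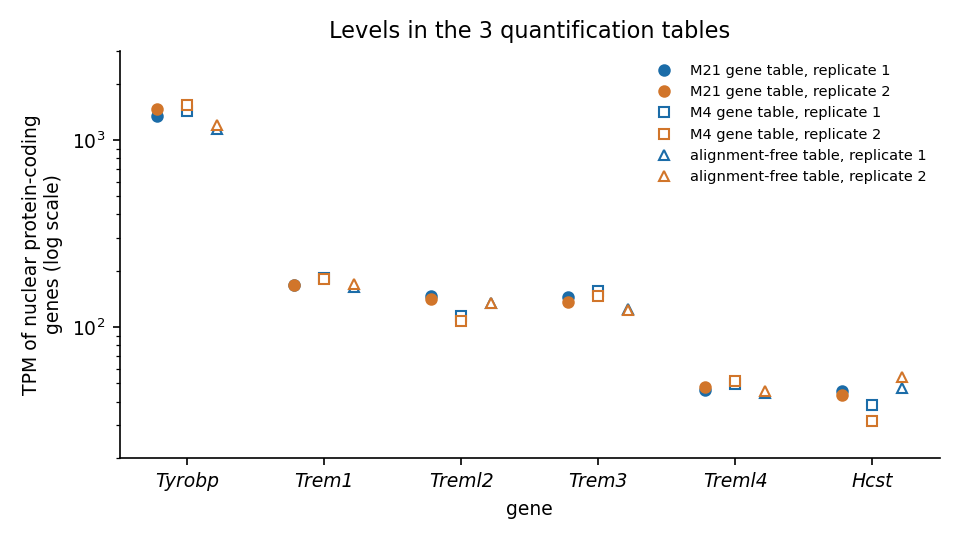
TPM rescaled to nuclear protein-coding genes (vertical log axis) for the 6 genes in the M21 gene table (filled circles), the M4 gene table (open squares) and the alignment-free table (open triangles), replicate 1 blue and replicate 2 orange. Tyrobp and Trem1 are the highest in each table, while Treml2 and Hcst shift most between tables.

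Of the 6 genes, 5 have 2 or more annotated transcripts, 19 in all with Trem3. A share is a transcript's TPM as a percent of the gene's. Between the libraries, the leading transcript's share in the alignment-based table moved by at least 10 percentage points in 1 of these 5 genes, Tyrobp. Hcst fell just short of that, at -9.85 points. The threshold of 10 points was chosen after the values were seen. Among 7430 detected genes of 2 or more transcripts, 31.9% moved as far. Among 3365 genes of 1000 or more expected counts in each library 18.8% did. In the alignment-free table the change was -27.1 points for Tyrobp-201, -19.2 for Hcst-201 and 13.3 for Treml4-201. It was -3.46 for Trem1-201 and -4.15 for Treml2-201. How many of all genes moved as far there was not counted.

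**Figure D3:**
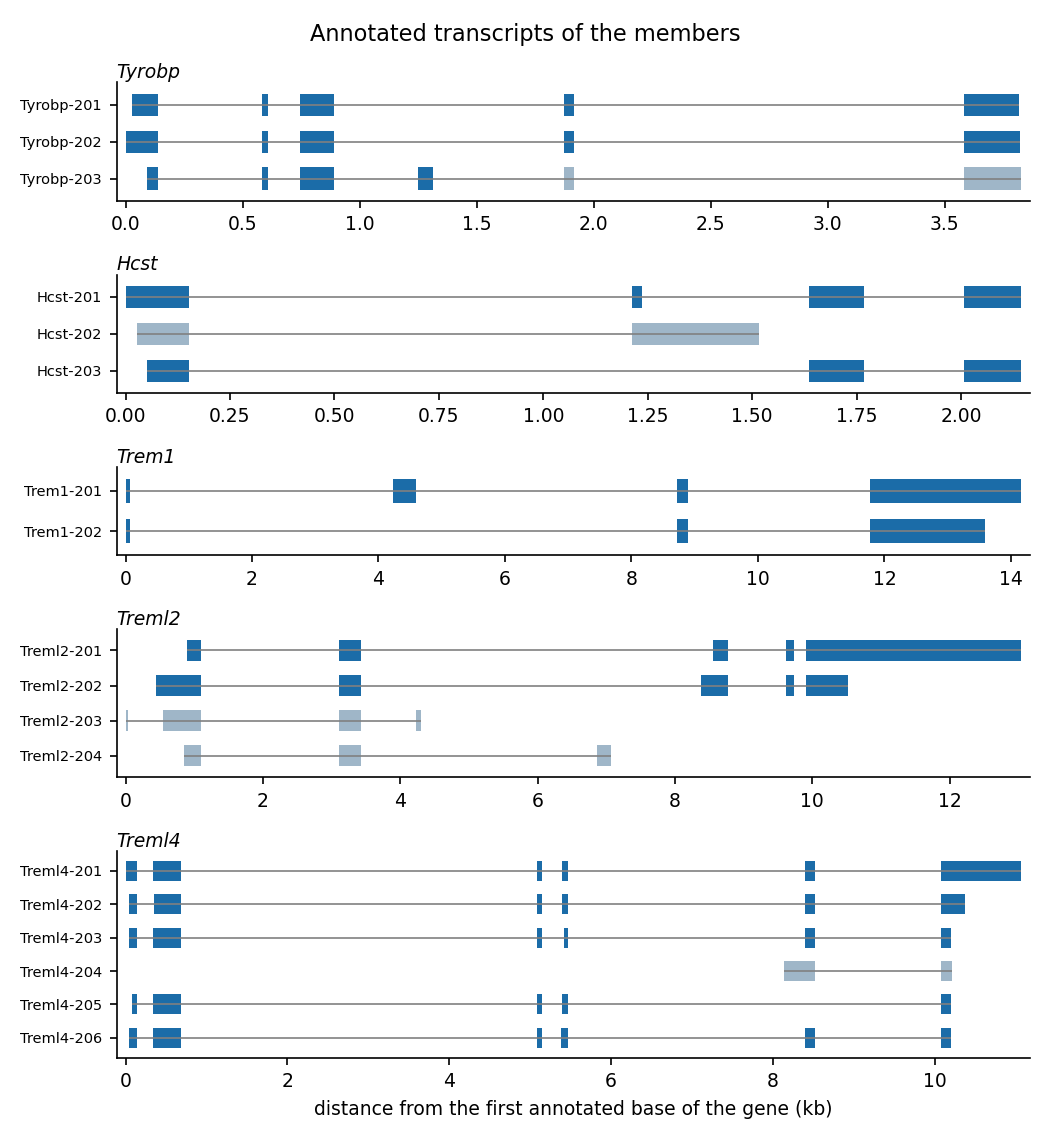
Annotated transcripts of the 5 genes with several transcripts, by distance from the first annotated base of the gene (horizontal axis, kb, drawn 5′ to 3′). Dark boxes are exons that hold coding bases, light boxes are exons without any, and lines are introns. Trem1-202 lacks the second exon of Trem1-201, and Tyrobp-201 and Tyrobp-202 share their exons apart from the ends.

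Tyrobp-201, the main coding transcript, took 90.5% of the gene in replicate 1 and 72.9% in replicate 2. Tyrobp-202 took 8.95% and 26.2%, from 446 and 1374 expected counts. In the alignment-free table the shares of Tyrobp-202 were 13.8% and 40.8%, so replicate 2 was higher in both tables. Tyrobp-202 had 10.57 TPM in replicate 1 and 31.91 in replicate 2 and was the only one of the 9 tested member transcripts with a (TPM + 1) fold of 2 or more, where 5.21% of 15726 transcripts were. Both transcripts share all 4 introns and differ by 28 bases at the 5′ end and 5 bases at the 3′ end, 33 bases in all. Reads that do not reach these ends cannot tell the forms apart, and the count of the gene does not turn on the split. The effective length of Tyrobp, which does enter its TPM, was 402 bases in replicate 1 and 414 in replicate 2. Tyrobp-203, annotated for nonsense-mediated decay, took 0.50% and 0.89%.

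Hcst-201 took 76.4% and 66.6%. The retained-intron transcript Hcst-202 took the remaining 23.6% and 33.4%, from 24.3 and 32.0 expected counts. In the alignment-free table Hcst-201 took 78.4% and 59.2%, and Hcst-202 21.6% and 40.8%. Hcst-203, which lacks the 24-base second exon of Hcst-201, had a share of 0 in both libraries and both tables. At about 100 counts for the gene, these shares rest on few reads.

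Trem1-201 took 83.8% and 84.0% of Trem1, and Trem1-202 16.2% and 16.0%. The replicates differed by 0.21 percentage points for Trem1-201. The tables differed more, since the alignment-free table gave Trem1-202 38.3% and 41.8%. Trem1-202 lacks exon 2 of Trem1-201, chr17:48236998-48237354, whose 357 coding bases (119 codons) encode the immunoglobulin domain. The frame is kept, which leaves 111 of 230 codons, membrane lysine codon included. The transcripts differ in length at the 3′ end as well. The junctions that tell them apart are shown with 15 bases on each side and the downstream exon in capitals. They join chr17:48232843 to 48236998 in Trem1-201 and to 48241486 in Trem1-202.
Trem1-201: tgttctttgtctcagAAGTCAAAGCTGCCA
Trem1-202: tgttctttgtctcagGTTCTTCAGATGTGT

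Treml2-201 took 68.8% and 65.5%, and Treml2-202 30.1% and 33.9%. In the alignment-free table Treml2-202 took 34.9% and 38.2%. Exon 3 of Treml2-202 starts 177 bases earlier, at 48307880 rather than 48308057, which adds 59 codons (329 against 270) and lies ahead of the membrane stretch. The junctions start from chr17:48302932 in both and are shown in the same way.
Treml2-201: tggaagtgtatccagGGACCACCACACCAA
Treml2-202: tggaagtgtatccagCCCTCACAACTGAGA

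Treml4-201 took 77.0% and 85.1%, and Treml4-202, which lacks 12 coding bases at the start of exon 2, 12.4% and 12.9%. The retained-intron transcript Treml4-204 took 6.64% and 0.78%. The alignment-free table gave Treml4-201 lower shares of 54.1% and 67.4%, and Treml4-202 higher ones of 29.1% and 25.1%. Trem3 has the single transcript Trem3-201 of 183 codons.

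**Figure D4:**
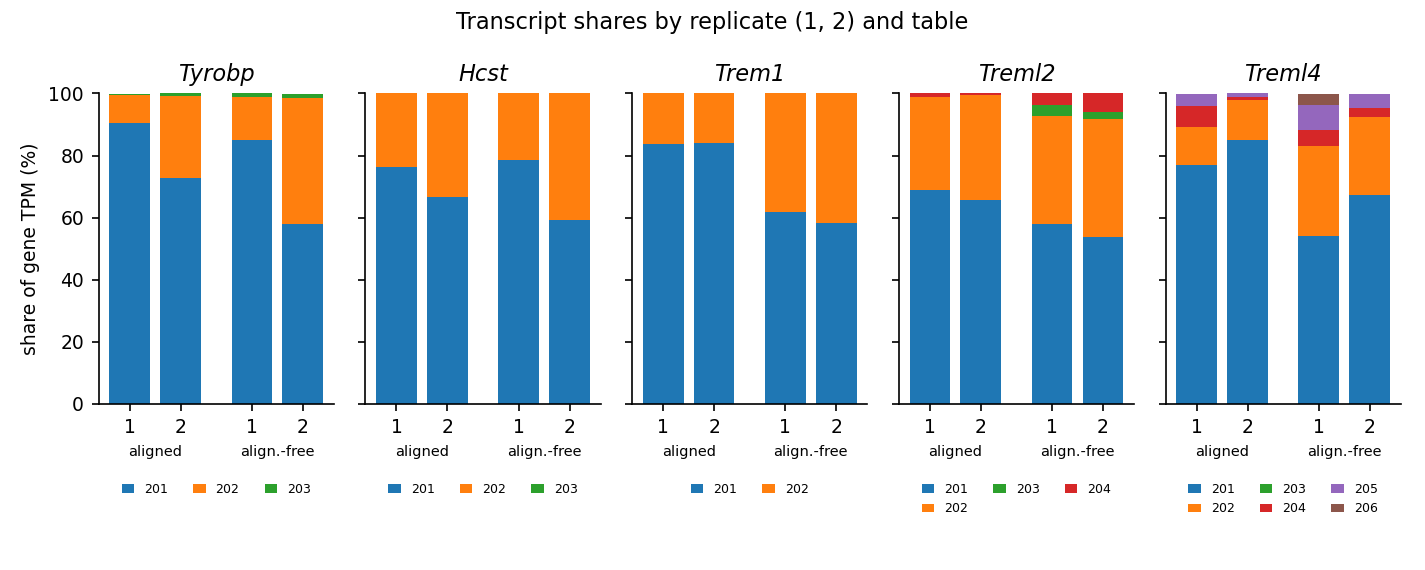
Share of each gene's TPM (vertical axis, %) by transcript number (colours) in replicates 1 and 2, for the alignment-based transcript table (left pair) and the alignment-free table (right pair). Tyrobp-202 is larger in replicate 2 in both tables, and Trem1-202 is larger in the alignment-free table in both replicates.

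None of the 6 genes differed between the libraries by a (TPM + 1) fold of 2 or more, where 0.923% of 9097 genes did. Ratios of counts were scaled by TMM (trimmed mean of M values), with exact conditional binomial 95% intervals that cover counting error only. The log2 ratio of replicate 2 over replicate 1 was 0.19 for Tyrobp (0.13 to 0.25) and 0.19 for Treml4 (0.02 to 0.36). It was 0.03 for Trem1 (-0.04 to 0.09), -0.05 for Treml2 (-0.12 to 0.01), -0.05 for Trem3 (-0.18 to 0.08) and -0.02 for Hcst (-0.42 to 0.39). The intervals of Tyrobp and Treml4 left out 0. Across 9854 protein-coding genes with 50 or more counts in each library the median was 0.01, with 5% below -0.36 and 5% above 0.42, so all 6 lay within the range of other genes. On the TPM scale the median gene shifted to -0.10, and the ratio of Tyrobp was 0.04 and that of Treml4 -0.02. Both genes thus lay above the median gene on either scale, though the sign of Treml4 itself differed.

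Promoter windows from RefSeq (GRCm38, 250 bases before to 50 after the gene start) matched Trem1, Treml4 and Hcst. They were searched on both strands for GAGGAA, the core of PU.1 sites, for TTGCNNAA, a C/EBP-like pattern, for TGANTCA, an AP-1 pattern, and for CCGCCC, an SP1 pattern. GAGGAA occurred once in the Trem1 window, 2 times in that of Treml4 and not in that of Hcst, and 28.3% of 32851 windows of this length held it. The other 3 patterns, found in 10.8%, 7.81% and 35.7% of all windows, occurred in none of the 3 windows. A match of letters is not a measured binding site.

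Lists of genes of ITAM signalling were set beside the members. They hold genes listed as possible partners of DAP12 or DAP10, and the shared kinases and enzymes. They also hold ITAM chains of B and T cell receptors and IgG Fc receptors, which are not partners of TREM receptors. Of 76 genes on these lists, apart from the members, 61 (80.3%) reached a TPM of 1 in each library. Of all 22028 protein-coding genes, 34.9% did, and the counts of each list below stand beside that share. The members' median was 12.2 ± 0.891 TPM, against 0.115 for all protein-coding genes and 4.29 for the 7682 that passed a TPM of 1.

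**Figure D5:**
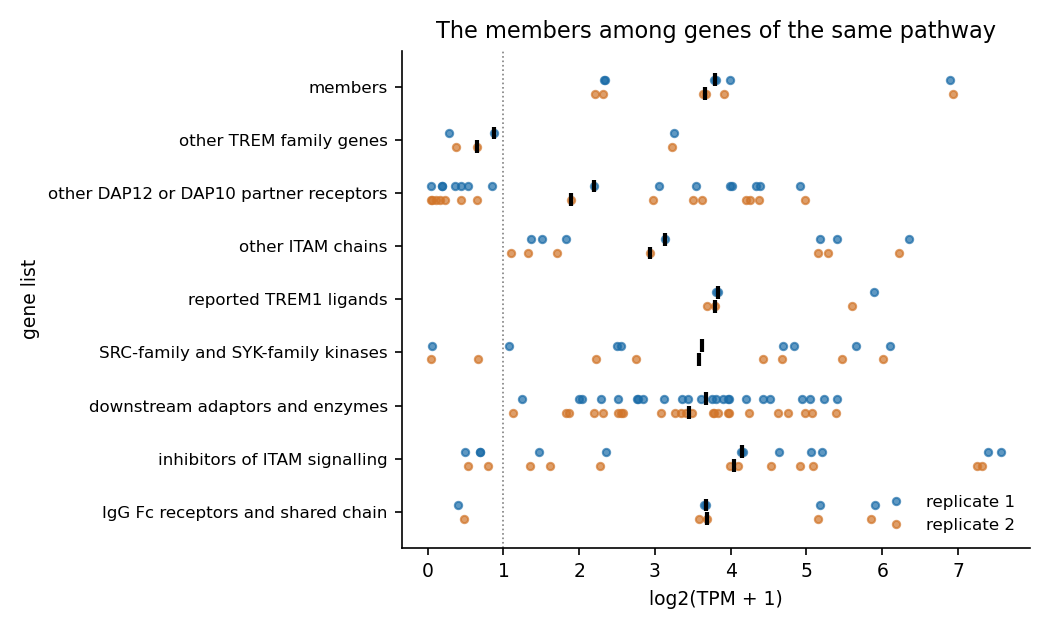
Level of each gene as log2(TPM + 1) (horizontal axis) by gene list, replicate 1 blue and replicate 2 orange, with the list median as a black bar and a TPM of 1 dotted. The inhibitors Ptpn6 and Lilrb4a and the adaptor Tyrobp are the highest points.

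Of the other TREM family genes, B430306N03Rik, for which RefSeq gives the synonym Treml6, had 8.52 and 8.33 TPM. Treml1, a receptor of platelets, had 0.84 and 0.57, and Trem2, a receptor of tissue macrophages and microglia, had 0.22 and 0.30. Both lay below the lowest of the 4 receptors in each library.

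Other receptors listed as possible partners of DAP12 or DAP10 numbered 15, and 8 passed a TPM of 1. Which adaptor each of them uses was not measured here. The highest were Cd300ld (29.8 ± 0.926), Sirpb1c (19.9 ± 0.120), Cd300lb (18.6 ± 0.686) and Sirpb1b (16.1 ± 1.75). All 4 exceeded Trem1 in both libraries, Sirpb1b with 14.88 TPM against 14.87 in replicate 1. The median of the 15 was 3.14 ± 0.615 TPM. Reads of Cd300ld and the Sirpb1 genes were shared out among similar sequences, as their fractional counts show, so their split is uncertain. Below 1 were 7 receptors, among them Klrk1, Klra8 and Cd200r3, of which Klrk1 and Klra8 belong to lymphocytes and natural killer cells. Siglech was lowest at 0.0350 ± 0.00707.

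All 7 other ITAM chains passed a TPM of 1, with a median of 7.18 ± 0.792. The B cell receptor chains Cd79b and Cd79a had 77.1 ± 4.96 and 39.6 ± 2.54, Fcer1g 34.9 ± 0.481 and the T cell receptor chain Cd3g 7.18 ± 0.792. Cd3e was lowest at 1.36 ± 0.297. Tyrobp exceeded each of them in both libraries. Cd79a and Cd79b are themselves on the list of B cell markers.

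Among the kinases that act on ITAMs, 6 of 8 passed, and the median was 14.0 ± 1.24 TPM. Syk, which docks on phosphorylated ITAMs, had 67.6 and 63.4 TPM. The SRC-family kinases of myeloid cells included Lyn at 46.2 ± 4.29 and Fgr at 26.0 ± 2.18. Src was lowest at 0.0350 ± 0.00707. Zap70, the relative of Syk in T cells, had 1.10 and 0.58 TPM.

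All 24 downstream adaptors and enzymes passed, with a median of 10.9 ± 1.33 TPM. The highest were the kinase Prkcd (41.2 ± 0.382), the protease Malt1 (34.6 ± 2.56), the exchange factor Vav1 (31.4 ± 0.983) and the kinase Ptk2b (27.8 ± 2.48). Sos1 was lowest at 1.28 ± 0.127.

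Inhibitors of ITAM signalling passed in 9 of 12 cases, with a median of 16.1 ± 0.863 TPM. The phosphatase Ptpn6 (SHP-1) had 189 and 158 TPM and the inhibitory receptor Lilrb4a 167 and 152, both above Tyrobp in each library. Pirb, at 34.5 ± 1.98, and Sirpa, at 30.8 ± 2.16, are inhibitory receptors as well. Ubash3b and Sla2 lay below 1 in both libraries, at 0.675 ± 0.0919 and 0.430 ± 0.0283. Lilrb4a and Pirb have fractional counts, so part of their reads was shared with similar genes. Counts were fractional as well for B430306N03Rik and Lyn above and for Hmgb1, Fcgr3 and Fcgr2b below.

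Of the reported ligands of TREM1, 3 were listed and measured too. Hmgb1, a nuclear protein released from dying cells, had 53.1 ± 7.69 TPM, Cirbp, an RNA-binding protein, 12.9 ± 0.0495 and Pglyrp1, a granule protein of neutrophils, 12.6 ± 0.948. Of the IgG Fc receptors and their shared chain, 4 of 5 passed: Fcgr3 had 57.7 ± 1.34, Fcer1g the level given above, Fcgr2b 11.8 ± 0.0849 and Fcgr4 11.2 ± 0.410. Fcgr1 had 0.360 ± 0.0566. Fcgr3 was the only gene of this list besides Fcer1g above Trem1 in both libraries.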

How the data were processed

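The deposited gene tables on GENCODE M21 (main) and M4 gene models give an expected count and a TPM per gene, and the transcript table gives each transcript's percent of its gene's TPM, per the file headers. The deposited bounds of the TPM interval come from the same gene table. A second deposited transcript table on M21 lists reads and no alignment among its parents and is called alignment-free. Its columns are estimated counts and TPM of transcripts. What programs made the tables is not given in the sources used here. Symbols came from field 6 of its target names, joined by gene ID (55450 of 55536). Entries that name no gene held 1.63e-04% and 2.16e-04% of the counts and stayed out.

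A gene counted as detected where each library reached a TPM of 1. Folds between libraries used genes with at least 50 expected counts in the higher library. Counts were rounded for TMM (edgeR 4.0.16), for DESeq2 1.42.0 size factors and for exact conditional binomial 95% intervals, which cover counting error only. A count of 0 allows up to 3 counts, 0.132 and 0.140 CPM in replicates 1 and 2. The fold rule and the binomial interval were tried on simulated counts that held counting error only. That trial did not cover TMM, transcript shares or variation between animals. Python 3.11.15, pandas 2.3.3, scipy 1.17.1, R 4.3.3 and BLAST+ 2.17.0 were used.

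The members and lists were chosen with earlier results of these data known. The text names all members and, of each list, the 4 highest genes, the lowest and up to 3 below a TPM of 1 in both libraries, or the whole list where it has 5 or fewer genes. Genes of the cell marker lists are named only where they bear on a member, which departs from that rule. A result that this rule would name is not reported here.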

Additional observations from a re-analysis of the deposited data

How the results depend on the processing

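Detection of all 6 genes was unchanged on the M4 models, in the alignment-free table and at 10 expected counts, while 4 of 6 passed a TPM of 5. Rescaling to nuclear protein-coding genes raised every level, so no gene detected before could be lost there. The order kept 4 of 6 places on M4 and in the alignment-free table. The log2 ratio of Tyrobp over Hcst (4.98) was 5.42 on M4, 4.54 in the alignment-free table and 4.65 with a pseudocount of 1, and 4.88 to 5.07 with 1 replicate left out. Tyrobp over the summed receptors (1.48) was 1.59 on M4, 1.32 in the alignment-free table, 1.46 with a pseudocount of 1 and 1.40 to 1.56 with 1 replicate left out. The listed genes detected, 61, ranged from 59 on M4 to 72 after rescaling, which makes the same cut looser. The share of all protein-coding genes that passed was counted at the main setting only. Member and list counts at the other settings therefore have no share beside them.

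Ratios between the libraries turned in sign for Trem1 (0.03, and -0.084 as a ratio of TPM), Treml4 (0.19, and -0.022 as a ratio of TPM), Trem3 (-0.05, and 0.032 in the alignment-free table) and Hcst (-0.02, and 0.26 in the alignment-free table). On the TPM scale the median protein-coding gene shifted to -0.10, and Trem1 and Treml4 stayed above it. The cause of the other 2 changes was not tested. Depth limits Hcst most, at 107 and 99 counts. No paired comparison between conditions was possible because the libraries form a single group.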
